A study of Mus musculus with 16 samples.

Results

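The RNA of 10 genes was described in leukaemia cells from bone marrow and the central nervous system: Ly6a, Kit, Il7r, Flt3, Il2rg, Jak1, Jak3, Stat5a, Stat5b and Cish. They were chosen by symbol, as genes that encode the surface antigens used to sort the cells or that carry the signal of the interleukin-7 (IL-7) receptor, and are 10 of the 55414 Ensembl gene identifiers in the deposited counts. All 10 passed the minimum of a mean of 10 counts per library, as did 18878 genes in all.

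The study sequenced RNA from 16 bulk samples of sorted leukaemia-propagating cells (LPC), the fraction of a leukaemia held to carry it onward. All cells had the genotype labelled miR-128a overexpressing Kmt2a-AFF1+, that is, a fusion of the genes Kmt2a and AFF1 together with excess of one microRNA, and the disease state labelled Pro B-ALL, an acute leukaemia of early B-lineage cells. The 4 groups, each of 4 libraries, were BM LSK, CNS LSK, BM LK and CNS LK. BM stands for bone marrow and CNS for central nervous system. LSK cells were sorted as lineage-negative cells carrying Sca1, cKit and IL7R. LK cells, called LK/CLP in the labels, were lineage-negative cells with cKit and without Sca1, and IL7R is not named in their gate. Since every group carries the same genotype, nothing here is a comparison with healthy cells. Age, strain, the number of animals and the promoter that drives the microRNA are not given in the sources used here. The labels do not say that libraries of a group came from separate animals, so p-values measure the spread between these libraries only.

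As background, the IL-7 receptor is a pair of chains, the IL-7 receptor alpha chain (Il7r) and the common gamma chain (Il2rg), which is shared with the receptors for several other interleukins. Binding of IL-7 brings together the kinases JAK1, held by the alpha chain, and JAK3, held by the gamma chain. These phosphorylate STAT5A and STAT5B, which enter the nucleus and switch on genes that include Cish, whose protein damps the signal in return. In the mouse the pathway is needed for early B and T lymphocyte development. Sca1, the product of Ly6a, is a membrane-anchored antigen used to enrich haematopoietic stem cells, while Kit and Flt3 are receptor tyrosine kinases for stem cell factor and FLT3 ligand.

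STAT5 is known to bind the palindrome TTCNNNGAA, so the promoters of the 10 genes were searched for it. RefSeq promoter windows (GRCm38.p6, 250 bases before to 50 bases after a start site, 300 bases) were found for 9 of the 10 members, in 12 windows. The motif reads the same on both strands, and it was present in 8.30% of the 32851 windows of all genes. It was found in the windows of 2 of the 9 members, Il7r and Cish. The Il7r match began 142 bases before the start site. Cish had a pair of matches that began at positions 1 and 12, counting the start site as 1, with 2 bases between them, and 0.457% of all windows held at least 2 matches. Among 13 STAT5 target and feedback genes listed for comparison, 9 had a window and 2 of these held a match, Socs3 and Bcl6. Bcl6 held 3 matches in 1 window and 1 in another, so more than 1 match was not particular to Cish. Socs3, a feedback inhibitor like Cish, is shown because its match stands alone. Each stretch below is 30 bases, 5′ to 3′ on the strand of the gene, with the motif in capitals; the positions are chr15:9529999-9530028 (minus strand) for Il7r, chr9:107296654-107296683 (plus strand) for Cish and chr11:117969501-117969530 (minus strand) for Socs3.
Il7r: gttcaggagcTTCAGGGAAtaccaagatgc
Cish: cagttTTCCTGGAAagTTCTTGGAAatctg
Socs3: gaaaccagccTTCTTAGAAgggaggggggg
A match in these letters is a description of the sequence and no binding was measured.

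The libraries held between 19.2 and 29.2 M counts each (M, mega; median 23.4). Levels are given as CPM, that is, counts scaled to a common total of a mega-count, on library sizes scaled by TMM, a method that balances libraries on the bulk of their genes. A background level was read from 1736 olfactory and vomeronasal receptor genes, which most tissues do not use. It averaged 0.0614 CPM per kilobase of exon in BM LSK, 0.0900 in CNS LSK, 0.0442 in BM LK and 0.0639 in CNS LK, so it moved with the groups. The markers of the labelled cell type were mostly at or near this level. Of 12 pro-B cell markers, 4 stood over 10 times background: Rag1 (276 CPM), Dntt (78.7 CPM), Cd24a (29.0 CPM) and, just past it, Cd79a (1.04 CPM, of which background would give 9.13%). Others that define the B lineage, such as Pax5 (0.596 CPM), Ebf1 (0.670 CPM) and Vpreb1 (0.187 CPM), did not. Of 11 T cell markers, 7 stood over 10 times background, led by Thy1 (321 CPM) and Lck (223 CPM), while Cd3e was at 0.277 CPM. Most of the defining markers thus go against the labelled B-lineage identity, and the cells are called by their sort gates below. None of 9 myeloid, 7 microglia, 7 erythroid or 4 megakaryocyte markers stood over 10 times background, and their summed levels were at most 6.56, 3.24, 3.66 and 2.46 CPM in any library. Of 8 neural markers 1 did (Mbp, 36.3 CPM), and of 6 stromal and endothelial markers 2 did (Pecam1, 82.2 CPM, and Pdgfrb, 26.1 CPM).

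Of the 10 genes, 8 were well expressed and nearly level across the study, and 2, Ly6a and Cish, were scarce and variable. Compared per kilobase of exon, Jak1 had the highest level, 22.0 ± 2.00 CPM per kilobase (mean ± SD over 16 libraries). It was followed by Il7r at 17.9 ± 2.46, Kit at 15.6 ± 1.63, Stat5b at 13.2 ± 0.952, Il2rg at 7.19 ± 1.07, Stat5a at 6.89 ± 0.421, Jak3 at 6.38 ± 0.963, Flt3 at 2.25 ± 0.345, Ly6a at 0.880 ± 0.467 and Cish at 0.191 ± 0.145 CPM per kilobase. Both receptor chains were thus read alongside both of their kinases and both STAT5 genes, with the alpha chain over the gamma chain in each library. Neighbours in this order overlapped in range except at 2 steps, from Stat5b to Il2rg and from Jak3 to Flt3. Il2rg exceeded Stat5a in 10 of 16 libraries and Stat5a exceeded Jak3 in 11 of 16, so the order of these 3 was not fixed. The length used was all annotated exons of a gene together. With the longest principal transcript as the length, Kit (26.6) stood over Il7r (23.5) and Stat5a (12.6) over Il2rg (10.3), while the other places stayed as given and Cish was again lowest, at 0.431 CPM per kilobase.

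**Figure D1:**
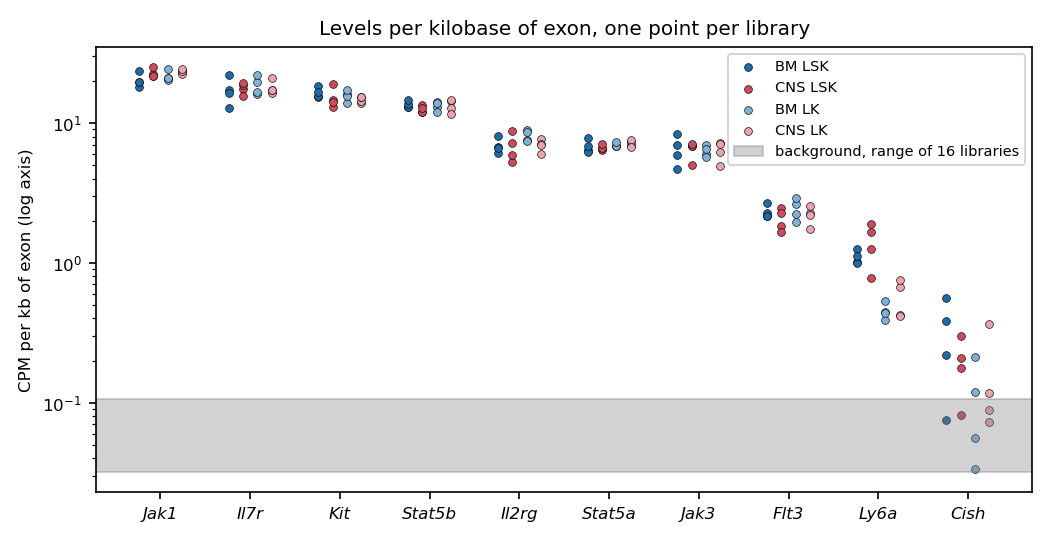
Level of each of the 10 genes in CPM per kilobase of exon (log axis), with 1 point per library coloured by group and the range of the background level as a grey band. Of the 10 genes, 8 lie well above the band in each library, Ly6a lies lower with LSK libraries over LK libraries, and some Cish points fall within the band.

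The LSK and LK gates differ in Sca1, and the RNA of Ly6a, which encodes it, differed with them. Its level was 1.23, 1.52, 1.21 and 1.35 CPM in BM LSK 1 to 4, and 1.53, 2.01, 0.944 and 2.27 CPM in CNS LSK 1 to 4. It was 0.468, 0.539, 0.529 and 0.641 CPM in BM LK and 0.804, 0.510, 0.906 and 0.503 CPM in CNS LK. The lowest LSK library (CNS LSK 3) lay above the highest LK library (CNS LK 3), so the 8 LSK and 8 LK libraries did not overlap, though the gap between these 2 was small. Over both niches Ly6a was higher in LSK by 1.30 ± 0.21 on the log2 scale (SE; 95% interval 0.85 to 1.75), a 2.47-fold difference (adjusted p 0.0117, quasi-likelihood test of edgeR). It was the 1 member of 10 that passed here, where 0.238% of all genes tested did, 0.228% as higher and 0.0106% as lower in LSK. The groups were sorted on the product of Ly6a, so this call is not independent of how they were formed. The LSK and LK libraries did not overlap in 0.0901% of all genes. The edgeR fit took all libraries as independent, although each BM library shares the first part of its description label with a CNS library. Fits that used those shared labels did not keep the call, as given below.

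The difference in Ly6a had nearly the same size in each niche. It was 1.28 in BM (adjusted p 0.301 by edgeR) and 1.32 in CNS (adjusted p 0.655 by edgeR), each with 4 libraries against 4 and no overlap, as in 3.13% and 3.65% of all genes. Neither passed alone, in comparisons where 0% of all genes tested passed (DESeq2 called 25 genes in BM and 6 in CNS, with 0 members). Unadjusted p-values under 0.05 were reached by Ly6a and Cish in BM and by Ly6a in CNS, among 6.38% and 6.58% of all genes. The difference between these 2 differences was 0.04 with an interval from −0.90 to 0.98 on the log2 scale. In all 16 fits that left out 1 library the call stayed, with log2 values from 1.23 to 1.40. Between niches the log2 difference of Ly6a was 0.33 (CNS minus BM, 95% interval −0.12 to 0.77; adjusted p 0.696 by edgeR).

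Ly6a RNA was scarce even in Sca1-sorted cells. It was read by 11 to 50 counts in a library (median 21), in libraries of at least 19.2 M counts. The level expected from background was 5.57% of its mean in BM LSK, 6.42% in CNS LSK, 9.78% in BM LK and 11.3% in CNS LK. With background as a covariate in the fit the log2 difference was 1.30 again, with an adjusted p of 0.0611, and with counts summed over the BM and CNS libraries of a description stem it was 1.31, with an adjusted p of 0.155. With the stem as a random block it was 1.30 (adjusted p 0.0908), so none of these 3 fits kept the call. Of the 50-base stretches of its transcripts, 19.0% also occur in another gene, including Ly6c1 and Ly6i, whose own means were 0.626 and 0.420 CPM. In bulk RNA, fewer cells with a transcript and less of it per cell cannot be told apart.

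**Figure D2:**
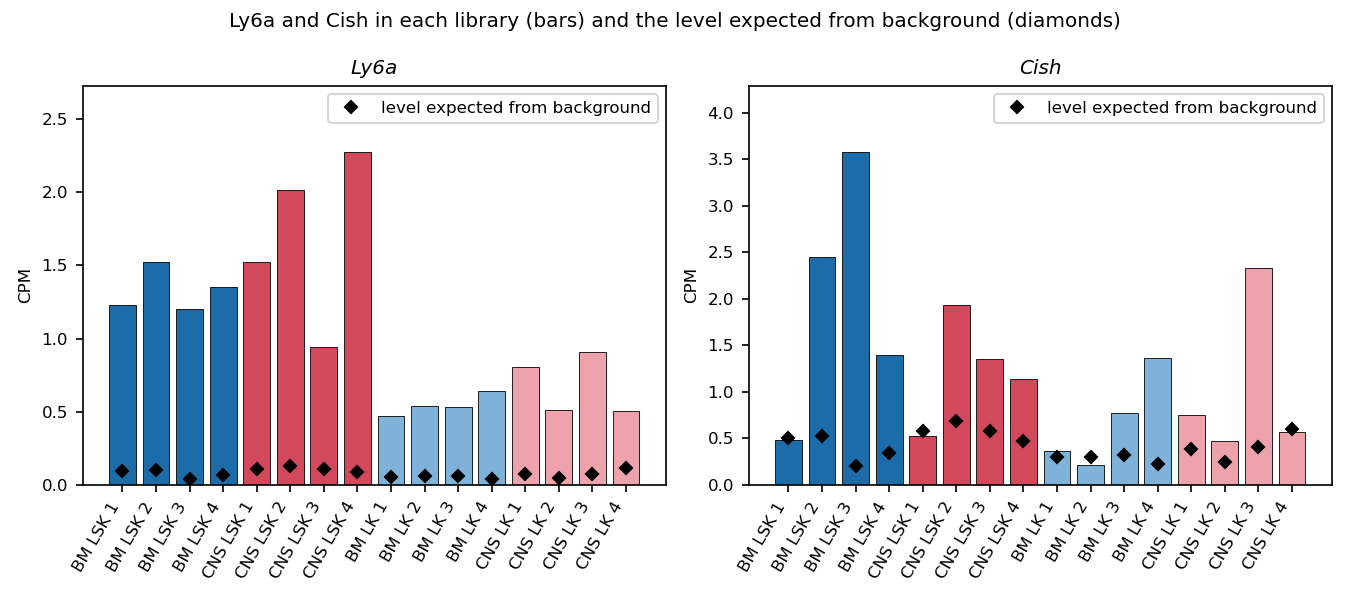
Ly6a and Cish in each of the 16 libraries in CPM (bars, linear axis from 0), with the level expected from background over all exons of the gene (diamonds). For Ly6a the bars of the 8 LSK libraries are taller than those of the 8 LK libraries and the diamonds are low, whereas for Cish the diamonds reach or pass the bar in BM LSK 1, CNS LSK 1, BM LK 2 and CNS LK 4.

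Other genes of the Ly6 family were not called. Of 9 Ly6 genes listed from the same family, 6 passed the count minimum and 0 were called higher or lower between LSK and LK. Ly6e (471 CPM) and Ly6d (96.8 CPM), an antigen known from lymphoid progenitors, were the most abundant and differed by −0.06 and −0.0022 between LSK and LK on the log2 scale (adjusted p 0.664 and 0.993 by edgeR). Ly6k (9.72 CPM) differed by −0.04. Ly6d had the smallest p of the list between niches, with a log2 difference of −0.17 (CNS minus BM) and an adjusted p of 0.520 by edgeR.

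Kit, whose antigen was required in both gates, was not called in any contrast. It was read at 163, 138, 139 and 150 CPM in BM LSK (libraries 1 to 4), 168, 117, 130 and 126 CPM in CNS LSK, 124, 144, 140 and 155 CPM in BM LK, and 123, 128, 138 and 136 CPM in CNS LK. The highest and the lowest of the 16 libraries were both in CNS LSK, and all groups overlapped. The LSK to LK log2 difference was 0.05 (95% interval −0.09 to 0.20; adjusted p 0.803 by edgeR). The CNS to BM difference was −0.11 (−0.26 to 0.03; adjusted p 0.666 by edgeR). The CNS library was the higher in 1 of 8 stems (BM and CNS libraries that share the first part of their description label). A difference of more than 1.2-fold either way is outside both intervals.

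Il7r, the alpha chain that binds IL-7, was read at 79.7 to 86.9 CPM as a group mean, in LK cells, whose gate does not name IL7R, as in LSK cells selected for it. Its level was 59.8, 79.7, 76.9 and 102 CPM in BM LSK, 81.7, 86.8, 72.6 and 89.8 CPM in CNS LSK, 75.8, 91.0, 77.5 and 103 CPM in BM LK, and 76.4, 80.9, 80.6 and 98.0 CPM in CNS LK. Replicate 4 was the highest of its group in all 4 groups, and the groups overlapped. The LSK to LK log2 difference was −0.07 (95% interval −0.27 to 0.12; adjusted p 0.804 by edgeR). The niche difference was 0.00 (−0.19 to 0.20).

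Flt3, a receptor known from lymphoid-primed progenitors, was the least abundant receptor of the set per kilobase. Its group means were 14.3 ± 1.45 CPM in BM LSK, 12.7 ± 2.37 in CNS LSK, 15.1 ± 2.59 in BM LK and 13.5 ± 2.01 in CNS LK (SD, n = 4). Library values ran from 10.2 (CNS LSK 4) to 18.0 CPM (BM LK 3), with all groups overlapping. The niche difference was −0.16 (95% interval −0.38 to 0.05; adjusted p 0.673 by edgeR) and the LSK to LK difference −0.08 (adjusted p 0.801).

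**Figure D3:**
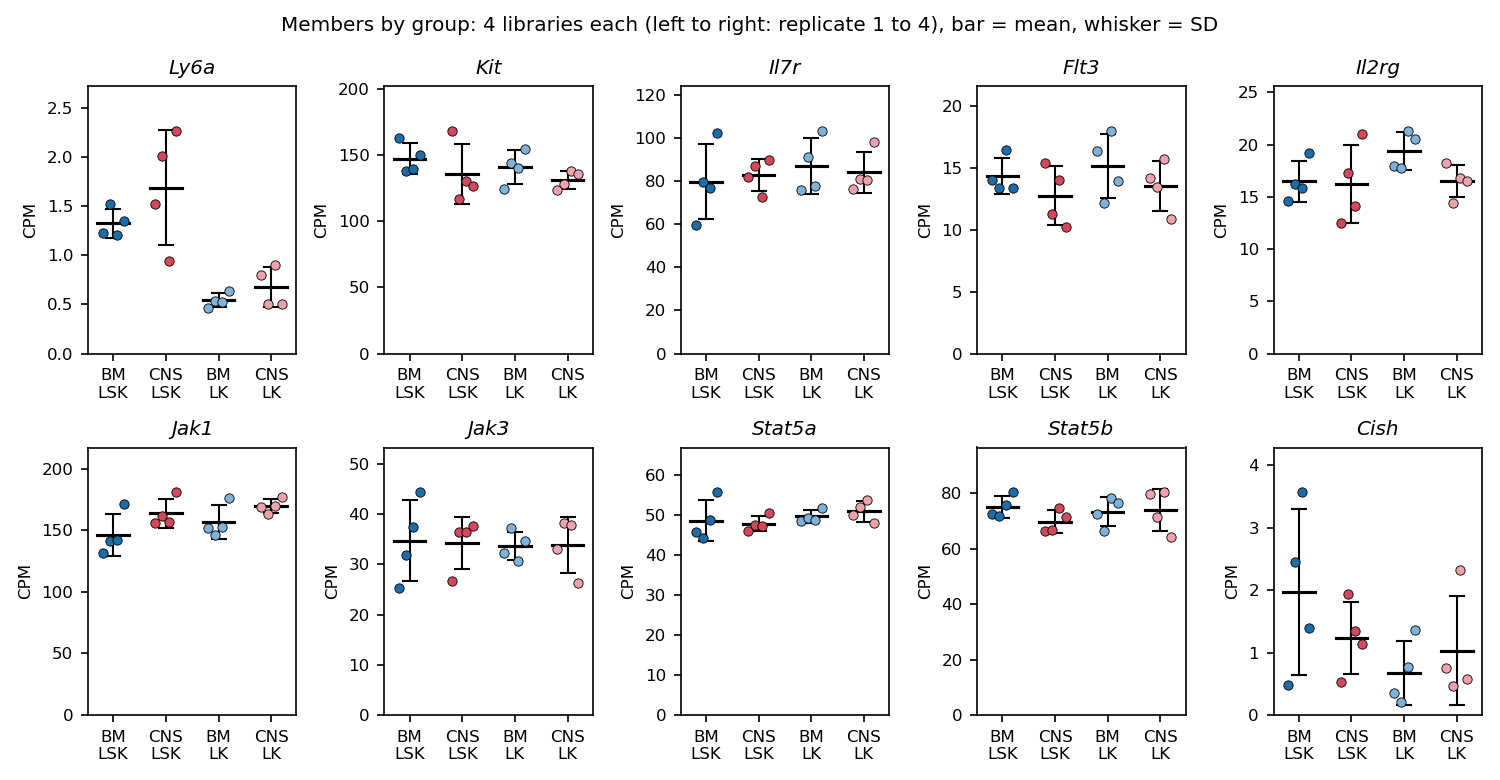
Each of the 10 genes in CPM by group, on linear axes from 0, with 1 point per library (replicates 1 to 4 from left to right in a group), the mean as a bar and the SD as whiskers. LSK and LK libraries are apart for Ly6a, whereas the groups overlap for the other 9 genes.

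Il2rg, the common gamma chain, had group means of 16.5 ± 1.95 CPM in BM LSK, 16.2 ± 3.77 in CNS LSK, 19.4 ± 1.81 in BM LK and 16.5 ± 1.56 in CNS LK. The 4 BM LK libraries, at 17.8 to 21.3 CPM, overlapped with CNS LK at 14.4 to 18.2 CPM. Within LK the CNS to BM log2 difference was −0.23 (p 0.0947 by edgeR, unadjusted), and over both LPC types it was −0.13 (95% interval −0.33 to 0.07; adjusted p 0.742 by edgeR). An annotated readthrough transcript covers 27.5% of the 50-base stretches of Il2rg, but its own mean count was 0.38.

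Jak1, the kinase on the alpha chain, was the member with the steadiest difference between niches, and this did not pass the test. Its level was 132, 141, 142 and 171 CPM in BM LSK, 156, 161, 157 and 181 CPM in CNS LSK, 152, 146, 153 and 177 CPM in BM LK, and 169, 163, 170 and 177 CPM in CNS LK. Replicate 4 was the highest in each group, as for Il7r. The CNS library exceeded the BM library with the same stem of the description label in 8 of 8 stems, although no label says what a stem is. The other members had from 1 (Kit) to 5 such stems (Ly6a, Jak3 and Stat5a). The share of all genes with 8 of 8 was not computed. The ranges of CNS and BM libraries overlapped. The log2 difference was 0.14 ± 0.058 (95% interval 0.02 to 0.26), a 1.10-fold difference, and edgeR gave an unadjusted p of 0.0278 that became 0.490 after adjustment. No gene of 18878 passed an adjusted p of 0.05 between niches over both LPC types (0%), while 9.15% had an unadjusted p under 0.05, so 1 of 10 members with such a p is near the share of all genes. DESeq2 called 40 genes in this comparison and limma-trend 0, with 0 members among them. With the stem as a block edgeR called 126 genes (0.667%) and again 0 members, with adjusted p-values of 0.108 for Jak1 and 0.252 for Kit. In that fit 4 of 10 members and 2537 of 18878 genes had an unadjusted p under 0.05. With background as a covariate as well, 2 members and 990 genes did. The LSK to LK difference of Jak1 was −0.07 (adjusted p 0.645 by edgeR).

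Jak3, the kinase on the gamma chain, was read at 34.8 ± 8.15 CPM in BM LSK, 34.3 ± 5.14 in CNS LSK, 33.7 ± 2.83 in BM LK and 33.9 ± 5.57 in CNS LK. The largest spread was in BM LSK, from 25.3 to 44.4 CPM. Its differences were 0.03 between LSK and LK and −0.01 between CNS and BM. Both intervals included no difference (−0.19 to 0.25 and −0.23 to 0.21). Per kilobase Jak1 stood over Jak3 in each library.

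The STAT5 genes were the steadiest of the set. Stat5a varied by 6.11% between libraries (coefficient of variation over 16) and Stat5b by 7.22%. Stat5a had means of 48.5 ± 5.07 CPM in BM LSK, 47.7 ± 1.91 in CNS LSK, 49.5 ± 1.51 in BM LK and 50.8 ± 2.53 in CNS LK. For Stat5b they were 75.2 ± 3.95, 69.8 ± 4.08, 73.3 ± 5.27 and 73.9 ± 7.61 CPM in the same order. Their balance varied little, with Stat5a taking between 38.1% and 42.7% of the counts of the pair in each library (median 40.3%). The CNS to BM difference was 0.01 for Stat5a (95% interval −0.10 to 0.11) and −0.05 for Stat5b (−0.16 to 0.07). Between LSK and LK it was −0.06 (−0.17 to 0.05) and −0.02 (−0.14 to 0.09). The 2 genes share 608 stretches of 50 bases, 8.21% of those of Stat5a and 11.0% of those of Stat5b. Stat5a also overlaps Stat3 on the opposite strand (mean count 990), and the use of strand in counting is not given in the sources used here.

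**Figure D4:**
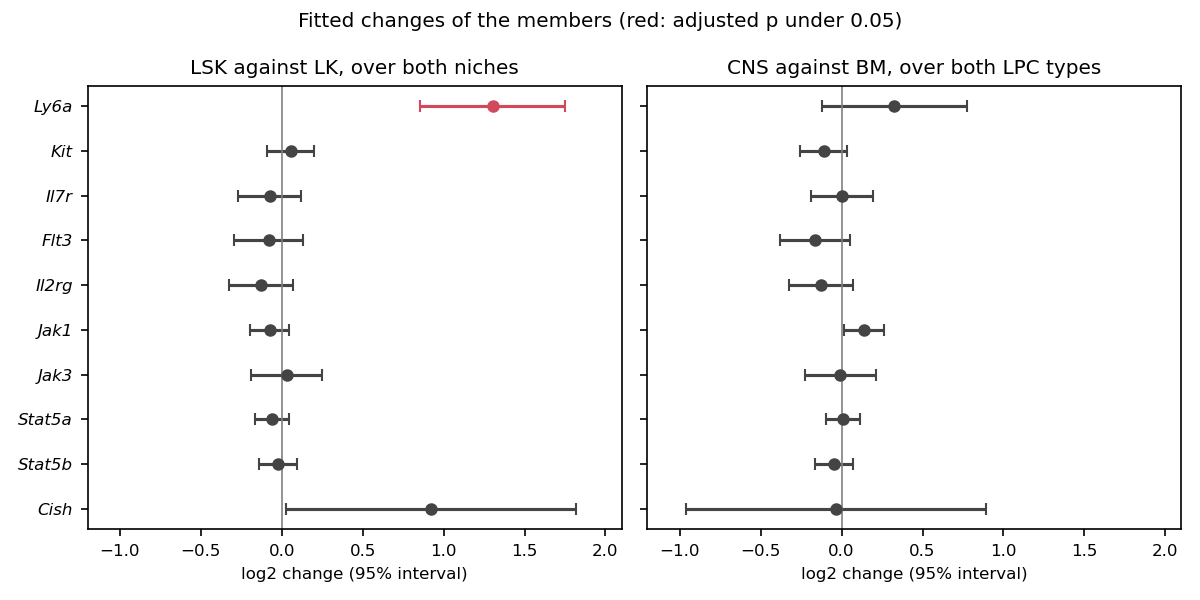
Fitted log2 difference of each of the 10 genes with its 95% interval, LSK minus LK over both niches (left) and CNS minus BM over both LPC types (right). On the left Ly6a, in red, is the point past an adjusted p of 0.05 and Cish has a wide interval from 0.02 to 1.82, and on the right no gene passed.

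Cish, the STAT5-induced inhibitor, was the most variable member and the least abundant. It was read at 0.480, 2.45, 3.57 and 1.40 CPM in BM LSK, 0.523, 1.93, 1.35 and 1.14 CPM in CNS LSK, 0.360, 0.215, 0.769 and 1.36 CPM in BM LK, and 0.750, 0.467, 2.33 and 0.571 CPM in CNS LK. The highest library (BM LSK 3) was 16.6 times the lowest (BM LK 2), against 4.86 times for Ly6a and 1.25 to 1.76 times for the other 8 members. Counts ran from 6 to 80. The groups overlapped in each comparison. Background read over all its exons would give 33.9% of its mean level, and at or over 100% in 4 libraries; over its principal transcript the share was 15.0%, and at most 62.1% in a library.

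No contrast called Cish. Its LSK to LK log2 difference was 0.92 ± 0.43 (95% interval 0.02 to 1.82; unadjusted p 0.0446, adjusted p 0.400 by edgeR). The members with an unadjusted p under 0.05 here were 2 of 10, against 12.1% of all genes. With background as a covariate the difference was 1.16 (adjusted p 0.672 by edgeR). Within BM it was 1.57 (adjusted p 0.732 by edgeR) and within CNS 0.27. The niche difference was −0.03 with an interval from −0.96 to 0.89. That range holds both a 1.5-fold rise and a 1.5-fold drop, so Cish was too variable for a niche difference of that size to be detectable here.

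Of 11640 genes compared, those most like Cish in log2 CPM were Clec2d (Pearson's r 0.854), Socs1 (0.846) and Pim1 (0.834), over 16 libraries that also share their differences in depth and background. Socs1 encodes another inhibitor of JAK kinases and Pim1 a survival kinase, and both are known STAT5 targets. Socs1 was highest in BM LSK 3 at 44.1 CPM, and lowest in CNS LSK 1 at 10.6 CPM. Pim1 was highest in the same library at 100.3 CPM and lowest in CNS LSK 1 at 32.5 CPM. In BM LSK the order of Cish was replicate 1 at the bottom and 3 at the top, and that of Socs1 and Pim1 began and ended with the same libraries. In BM LK all 3 genes were lowest in replicate 2 and highest in 4. The other groups matched in part. In CNS LSK all were lowest in replicate 1, but Cish was highest in 2, Socs1 in 4 and Pim1 in 3. In CNS LK all were highest in replicate 3, but Socs1 was lowest in 1, and Cish and Pim1 in 2. Both genes lay far above background, which would give 0.864% and 0.402% of their mean levels. Neither RefSeq window of Pim1 nor that of Socs1 held the motif TTCNNNGAA.

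**Figure D5:**
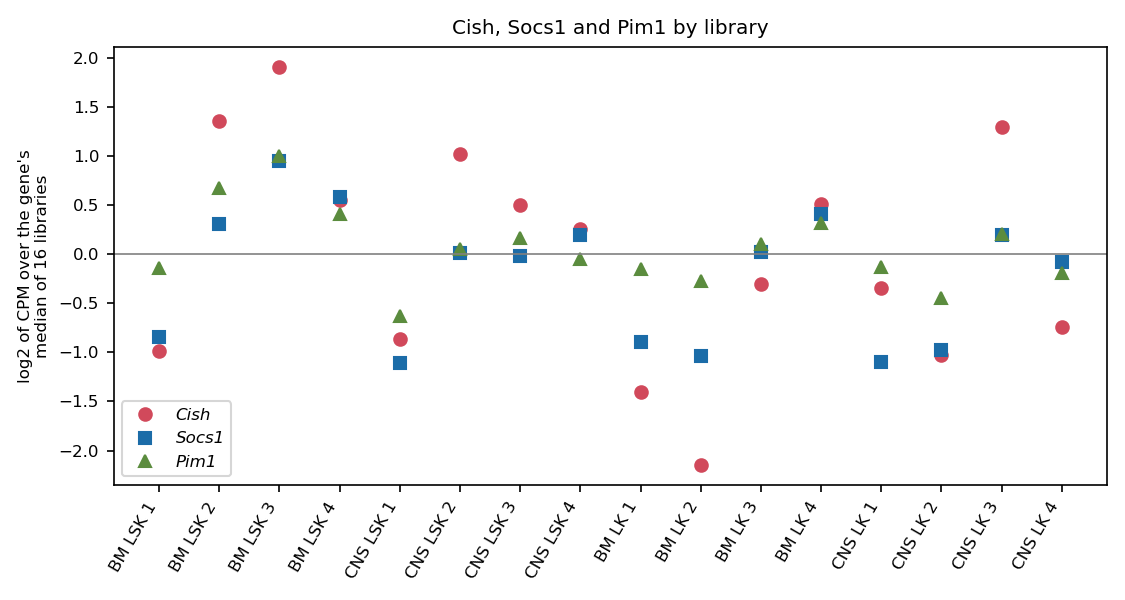
Cish, Socs1 and Pim1 in each library as the log2 ratio of CPM to the median of the same gene over the 16 libraries. The 3 genes are high together in BM LSK 3 and low together in CNS LSK 1, with Cish spanning the widest range. Cish is lowest in BM LK 2, and in CNS LSK 1 it does not exceed the level expected from background over all its exons. BM LSK 3 is also the library with the lowest background, 0.0318 CPM per kilobase.

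The other STAT5 targets and feedback genes were not called either. All 13 passed the count minimum and 0 passed the test in any of the 7 contrasts. Myc (164 CPM), the cyclin gene Ccnd3 (155 CPM) and the survival gene Mcl1 (85.5 CPM) were the most abundant, with niche differences of −0.08, −0.07 and 0.02 on the log2 scale. Pim1 had the smallest p between niches. It had means of 72.9 ± 23.1 CPM in BM LSK, 47.2 ± 10.3 in CNS LSK, 50.7 ± 9.32 in BM LK and 46.0 ± 8.73 in CNS LK, and a log2 difference of −0.38 (adjusted p 0.430 by edgeR). Pim2, a related kinase gene, had the smallest p between LSK and LK, with a difference of 0.33 (adjusted p 0.358 by edgeR). The median of the 13 genes was −0.08 between niches and 0.06 between LSK and LK, against 0.00 and −0.01 over all genes.

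Among cytokines and receptor chains, the ligands were low. The receptor chains ranged from low, with Il4ra at 1.57 CPM, to high. Il7, the gene of IL-7 itself, was at 0.207 CPM and Tslp, which signals through Il7r with Crlf2, at 0.0923 CPM. Neither passed the count minimum. Kitl and Flt3l, the ligands of Kit and Flt3, were at 1.19 and 2.08 CPM, and Crlf2 at 2.87 CPM. The highest of the list was Il2ra, the alpha chain of the IL-2 receptor, at 485 CPM or 85.0 CPM per kilobase, above each of the 10 members. Its niche difference of −0.26 did not pass (adjusted p 0.708 by edgeR). Il9r (21.4 CPM) and Il15ra (8.38 CPM) were next. Il9r, which pairs with the common gamma chain, had 18.0 ± 3.80, 20.1 ± 1.65, 23.1 ± 5.44 and 24.3 ± 4.81 CPM in BM LSK, CNS LSK, BM LK and CNS LK, and a difference of −0.32 between LSK and LK (adjusted p 0.281 by edgeR). Of 11 genes listed 9 were tested and 0 called.

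The remaining lists gave 0 calls as well. Among 9 other JAK and STAT genes, Stat6 (52.8 CPM), Stat3 (41.7 CPM) and Jak2 (33.5 CPM) led. The smallest p between niches in that list was for Stam, an adaptor of JAK kinases (−0.16; adjusted p 0.490 by edgeR). Of 9 negative regulators, the phosphatase gene Ptprc (414 CPM), the ubiquitin ligase gene Cbl (341 CPM) and the phosphatase gene Inpp5d (89.1 CPM) were highest. The difference of Ptprc between LSK and LK was −0.14 (adjusted p 0.294 by edgeR) and that of Ptpn2 between niches −0.10 (adjusted p 0.684).

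Of 8 transcription factors known to act at Il7r, Ets1 (255 CPM), Runx1 (159 CPM) and Foxo3 (143 CPM) were abundant and differed by at most 0.09 on the log2 scale in either comparison. Nr3c1, the glucocorticoid receptor, which raises Il7r in lymphocytes, was at 121 ± 10.9 CPM in BM LSK and 102 ± 9.19 in CNS LSK, and at 118 ± 15.2 in BM LK and 105 ± 9.74 in CNS LK. Its niche difference of −0.21 did not pass (adjusted p 0.376 by edgeR), nor did that of Spi1 between LSK and LK (0.79 at a mean of 0.526 CPM; adjusted p 0.188 by edgeR).

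Among 11 Kit and Flt3 adaptors and effectors, the kinase subunit genes Pik3cd (216 CPM) and Pik3r1 (129 CPM) and the phosphatase gene Ptpn11 (120 CPM) led. Pik3cd varied widely, from 51.6 to 382 CPM in single libraries. Lyn had the smallest p between LSK and LK (−0.20; adjusted p 0.326 by edgeR). Of 8 other progenitor surface antigens 6 were tested. Cd93 (181 CPM), a marker of early B-lineage and stem cells, was at 194 ± 18.7 and 196 ± 17.7 CPM in BM and CNS LSK against 164 ± 24.6 and 170.1 ± 20.1 in BM and CNS LK, a difference of 0.22 (adjusted p 0.243 by edgeR). Cd27 (39.7 CPM) and Cd48 (8.80 CPM) were next, and Eng, near background at 0.514 CPM, had the smallest p between niches (1.15; adjusted p 0.359 by edgeR).

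Over the 8 lists together, 71 of 78 genes were tested and 0 passed an adjusted p of 0.05 in any contrast by edgeR, DESeq2 or limma-trend. An unadjusted p under 0.05 was reached by 7 of them between niches (2 higher and 5 lower in CNS) and by 9 between LSK and LK (6 higher and 3 lower in LSK), where 9.15% and 12.1% of all genes reached it. In the 10 members the median log2 difference was −0.04 between LSK and LK and −0.02 between niches, against −0.01 and 0.00 over all genes tested.

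No member passed the test of a niche difference that differs between LSK and LK. In this interaction 0% of all genes tested passed, 1.49% had an unadjusted p under 0.05, and the members' adjusted p was 1.00 in each case by edgeR. The widest value was again that of Cish, −1.30 on the log2 scale with an interval from −3.09 to 0.50. Within LSK alone and within LK alone, 0 members passed between niches, as did 0% of all genes, while an unadjusted p under 0.05 was seen in 5.74% and 3.99% of all genes and in 0 of the 10 members.

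For each of the other members, the genes most like it across the 16 libraries were listed among those with a mean of at least 50 counts. Ly6a was most like 9930111J21Rik2 (Pearson's r 0.825), Clpb (0.770) and Tgtp2 (0.745). Il7r was most like Dennd2d (0.892) and Gpr171 (0.890), Jak1 like Sh3kbp1 (0.898), Ipcef1 (0.879) and Cytip (0.874), and Jak3 like Cd37 (0.889), Sipa1 (0.879) and Ppcdc (0.860). Kit was most like Sclt1 (0.826), Hace1 (0.781) and Rbl1 (0.774), and Flt3 like Foxred2 (0.877), Prkar2b (0.871) and Mras (0.867). Il2rg was most like Srgn (0.864), Anxa11 (0.860) and Tcaim (0.856), Stat5a like Mnt (0.860), Dctn5 (0.855) and Rtf1 (0.850), and Stat5b like Nck2 (0.846), Ptprf (0.842) and Gramd4 (0.841). Between members the highest values were 0.706 for Il7r with Jak1 and 0.702 for Jak3 with Stat5a. All are highest values out of many genes, over libraries that share depth and background, and describe these libraries only.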

How the data were processed

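RNA of 16 sorted samples was extracted and made into strand-marked libraries of total RNA (a pico-input kit), per the labels. The deposited table holds whole-number counts per Ensembl gene identifier; its name calls them normalised, but totals differ between libraries and they were treated as raw counts. Build GRCm39 and DESeq2 are named in the submitters' processing notes, without a role. The aligner and counter are not given in the sources used here. All 16 columns matched a label and 0 were unused. Symbols, exon lengths and shared 50-base stretches came from GENCODE M21, on GRCm38, whose symbols matched 52081 of 55414 identifiers. The 3333 without a symbol held 39.0% to 45.3% of counts and stayed in library sizes.

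For the 18878 genes with a mean of at least 10 counts, edgeR 4.0.16 under R 4.3.3 fitted a mean for each of the 4 groups, scaled by TMM. The quasi-likelihood test was two-sided, with p-values adjusted by Benjamini and Hochberg's method over all genes and called at 0.05. SE is the log2 value over the root of F, and intervals are at 95%. The background expected in a gene is the receptor genes' CPM per kilobase times its exon length. Counting error is a lower limit of the error, since reads are not independent molecules. The fit was tested on simulated data. Alternatives were RLE factors, no filter, DESeq2 1.42.0, limma-trend (limma 3.58.1), genes with symbols, background as covariate, replicate blocks, sums per stem, leaving out each library, and, chosen after seeing the data, the principal transcript as length.

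The members and lists were chosen with earlier results of these data known. All 10 members are named. From each list the text names the 3 genes with the highest mean CPM, any gene past 0.05, and the gene with the smallest p between niches and between LPC types. For likeness it names the 3 genes with the highest Pearson correlation of log2 CPM (prior count 2). Socs1 and Pim1 enter through that rule. The values of some genes that these rules name are not reported here.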

Additional observations from a re-analysis of the deposited data

Results flagged for a closer look

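Among 48 sets of 4 libraries examined for a library far from the others of its group (the 10 members and 2 library measures in 4 groups), 2 stood out, where chance gives about 2.4. Jak3 was lowest in CNS LSK 1, at 26.6 CPM, against 36.4 to 37.6 CPM in the other 3 CNS LSK libraries. Cish was highest in CNS LK 3, at 2.33 CPM, against 0.467 to 0.750 CPM in the other 3 CNS LK libraries. In neither case did a contrast call the gene with or without that library.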

How the results depend on the processing

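The call of Ly6a between LSK and LK over both niches held in the fits with RLE factors, without a filter, with DESeq2 (adjusted p 5.14e-05), with limma-trend, on genes with symbols, with a replicate block on title numbers (log2 difference 1.29, adjusted p 0.0143 by edgeR) and in the 16 fits without 1 library (1.23 to 1.40, adjusted p 0.00815 to 0.0385). It did not hold, leaving 0 members called, with background as a covariate (1.30, adjusted p 0.0611), with a random replicate block on description stems (1.30, adjusted p 0.0908) or with counts summed per stem (1.31, adjusted p 0.155), where 8 values replace 16 libraries. Numbers of members called in the other contrasts were 0 in each fit run. Cish between niches over both LPC types turned from −0.03 to 0.89 (adjusted p 0.840 by edgeR) with the replicate block on stems and background together; the cause was not tested. Of 1720 recomputed member values 1688 either kept the call of Ly6a or, being uncalled, moved by less than 1 SE, and 28 moved more without a call. The call of Ly6a was lost in 3, and 1 value changed sign with an unadjusted p under 0.05 in either fit. In 132, with that 1 included, the sign of an uncalled value changed.

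Over all genes, the 45 called between LSK and LK became 290 without a filter, 222 with DESeq2, 162 with the block on title numbers, 11 with the random block, 10 with background as a covariate and 0 with sums per stem, and lay between 15 (CNS LK 3 left out) and 138 (CNS LSK 2 left out) in fits without 1 library. The 0 called between niches became 126 with the replicate block on stems, 85 without a filter and 40 with DESeq2. With that block 0 members were called, and Jak1 had an adjusted p of 0.108. Across genes, BM and CNS libraries with a common stem deviated together (correlation over 0.1) in 6 of 8 stems over genes averaging 10 counts or more, the minimum of the tests, and in 8 of 8 (0.339 to 0.618) over those averaging 50 or more. LSK and LK libraries of a niche with a common title number did so in 4 of 8 and 6 of 8 pairs. The number of stems over 0.1 thus depends on the minimum. At both minima the median correlation was higher for stems than for title numbers. It was 0.201 against 0.0775 over genes averaging 10 counts or more, and 0.430 against 0.218 over those averaging 50 or more. What a stem stands for is not given in the sources used here.

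Depth limits Ly6a and Cish, read by medians of 21 counts each.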
